A study of Mus musculus with 4 samples.

Results

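Negative feedback on MAP kinase signalling was examined in B16F10 cells, a pigmented mouse melanoma line, through 10 genes chosen by name: the MAP kinase phosphatase genes Dusp1, Dusp4, Dusp5, Dusp6 and Dusp10, the Sprouty genes Spry1, Spry2 and Spry4, and the Sprouty-related genes Spred1 and Spred2. The 10 genes were chosen with earlier results of these data known. Of these 10, 9 had at least 1 probe set annotated to that gene alone, out of 17097 genes measured in all. No probe set was listed under Dusp5, which has no value here. Control 1 and control 2 were cells that received MilliQ water, without plumbagin (0 µM). Plumbagin 1 and plumbagin 2 were cells that received plumbagin, a naphthoquinone made by plants, at 2 µM. Treatment lasted 24 h. All 4 samples were of the same cell line, with no other agent or allele in the labels. Whether the arrays of a group came from separate cultures is not stated, so the p-values reflect only how much these samples vary, and that variation may be technical. The numbers 1 and 2 are those of the sample titles, and the labels do not say that arrays of the same number were handled together.

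Growth factor receptors signal through RAS, RAF and MEK to the kinase ERK, and stress signals act through the related kinases JNK and p38. The dual-specificity phosphatases (DUSP) switch MAP kinases off by removing phosphate from threonine and tyrosine of their activation loop, and Sprouty and SPRED proteins restrain the pathway upstream, between the receptor and RAF. Many of these inhibitors are themselves transcribed in response to ERK activity, so that their RNA is widely used as a readout of the pathway, and melanoma cells often carry strong ERK signalling.

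Values are log2 expression values, on which a step of 1 is a doubling of signal, and a gene is represented by its brightest probe set. As the background level the 95th percentile of 41 odorant receptor genes was taken, a log2 value of 5.05, and the means of 7 of the 9 genes exceeded it, those of Dusp10 and Spry4 excepted. All 10 melanocyte markers, with Tyr, Tyrp1, Dct, Pmel and Mlana among them, were above it on every array. None of 6 fibroblast and 0 of 6 epithelial markers had a mean above it. Cd3e and Cd14, of 5 measured leukocyte markers, and Kdr, of 5 endothelial markers, did, with the mean of the leukocyte list between 4.37 and 4.44 on the 4 arrays. The array plumbagin 1 stood apart in its spike-in hybridization controls, with a mean of 9.58 against 8.46 to 8.77 on the others. Values are therefore given for each array, and results are given without plumbagin 1 where it moves them.

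Promoter sequences from RefSeq (assembly GRCm38.p6) were matched for 8 of the 10 genes, each covering 250 bases before and 50 bases after the annotated start. They are shown for Dusp1 and Spry2, the genes whose plumbagin arrays both lay below both controls, and for Spred1, the gene with a higher mean after plumbagin. They lie at chr17:26508423-26508722 (minus strand), chr14:105896770-105897069 (minus strand) and chr2:117120821-117121120 (plus strand). Capitals mark matches to the motifs described after them.
Dusp1: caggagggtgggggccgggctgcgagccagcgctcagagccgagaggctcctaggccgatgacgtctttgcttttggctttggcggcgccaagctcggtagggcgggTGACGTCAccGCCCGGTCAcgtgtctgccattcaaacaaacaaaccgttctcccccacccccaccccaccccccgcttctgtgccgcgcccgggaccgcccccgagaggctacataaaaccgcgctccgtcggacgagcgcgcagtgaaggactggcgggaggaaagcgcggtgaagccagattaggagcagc
Spry2: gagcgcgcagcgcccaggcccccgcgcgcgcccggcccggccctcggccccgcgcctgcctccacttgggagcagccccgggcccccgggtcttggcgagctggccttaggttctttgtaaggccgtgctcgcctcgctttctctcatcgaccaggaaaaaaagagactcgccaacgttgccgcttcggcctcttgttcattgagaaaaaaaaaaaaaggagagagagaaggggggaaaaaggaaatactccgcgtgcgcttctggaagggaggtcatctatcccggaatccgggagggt
Spred1: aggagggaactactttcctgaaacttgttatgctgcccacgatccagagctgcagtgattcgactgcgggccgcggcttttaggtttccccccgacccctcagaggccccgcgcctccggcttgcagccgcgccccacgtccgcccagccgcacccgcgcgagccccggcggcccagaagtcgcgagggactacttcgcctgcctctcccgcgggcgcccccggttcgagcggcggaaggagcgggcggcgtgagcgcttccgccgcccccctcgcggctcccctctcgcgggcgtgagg

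The motifs searched on both strands were the cAMP response element TGACGTCA, the AP-1 site TGANTCA, the ETS site CCGGAAGT, the NRF2 antioxidant response element TGACNNNGC and the CArG box of serum response factor. Dusp1 held the cAMP response element at -143 to -136 from its start, and 2 bases further a match to the antioxidant response element on the other strand, at -133 to -125. The first is present in 1.79% of all 32851 promoters of the table and the second in 12.4%. Dusp5, which was not measured, held 2 CArG boxes (1.63% of promoters) and 1 antioxidant response element. In the windows of Spry2, Spred1 and the other 4 matched genes none of the 5 motifs occurred, so 2 of the 8 genes had any, against 24.8% of all promoters. What the 8 windows had in common was CpG content, with 17 to 40 CpG dinucleotides each against a median of 7 over the whole table, which also holds noncoding genes. These matches describe letters in the windows, and no binding was measured.

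After plumbagin 8 of the 9 measured genes had a lower mean (55.2% of all genes). After cyclic loess normalization between arrays 6 of 9 did (52.3% of all genes). On the deposited values the median difference was -0.17 against -0.01 over all genes. Among genes above the background level, where 7 of the 9 lie, 65.1% had a lower mean and the median was -0.05, and of the 7 members there 6 were lower. Dusp1 and Spry2 were the members in which both plumbagin arrays lay below both controls. That is 2 of 9, with 15.2% of all genes and 18.3% of those above background arranged so, and 0 of 9 had both plumbagin arrays above both controls, with 10.2% of all genes. No member passed limma's test with Benjamini-Hochberg adjustment over all genes (adjusted p = 1 for each of the 9), and the share of all genes that passed was 0%. At an unadjusted limma p under 0.05, 1 member, Dusp1, was lower, with 0.731% of all genes lower at that level. This count was 2, with Spry2 added, when probe sets were averaged, and 0 in a fit with a variance trend. For a single gene, the exact permutation test of 2 arrays against 2 cannot give a two-sided p under 0.333.

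**Figure D1:**
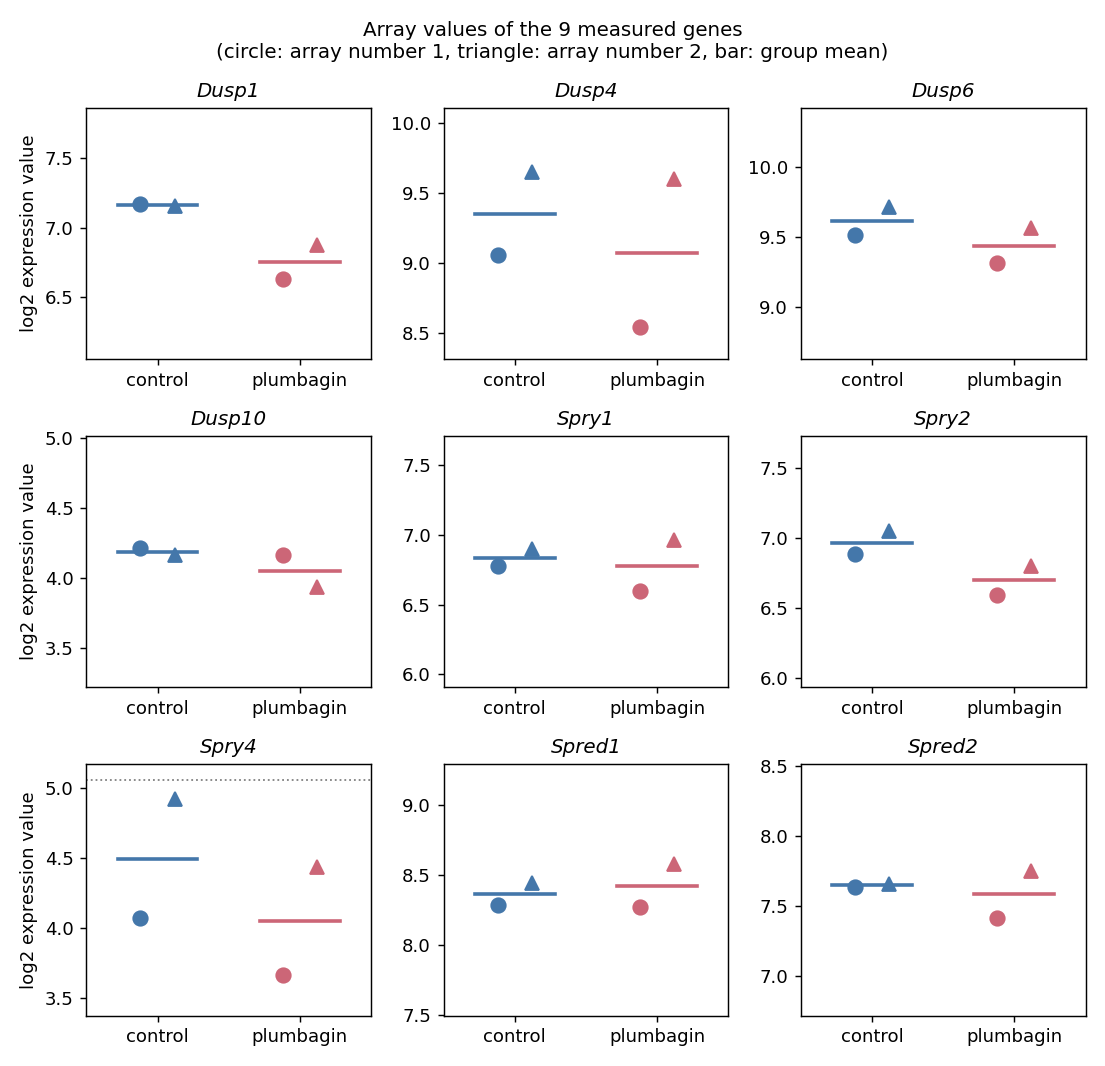
Log2 expression value (vertical axes, each spanning the same width) of the 9 measured genes on the control (blue) and plumbagin (red) arrays, with circles for number 1, triangles for number 2, bars for group means and a dotted line at the background level where it falls in the panel. Dusp1 and Spry2 are the genes whose groups do not overlap, and in 8 of the 9 panels the lowest point is plumbagin 1.

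Dusp1 encodes a nuclear phosphatase that acts on p38, JNK and ERK and is induced within minutes of stress or growth factor. Its log2 values were 7.17 and 7.16 in controls 1 and 2 and 6.63 and 6.88 in plumbagin 1 and 2. The controls lay within 0.01 of each other and both plumbagin arrays lay below them, with differences of -0.53 in number 1 and -0.28 in number 2. The mean difference was -0.41 ± 0.11 (log2, SE, n = 2 per group), which is 1.33-fold lower, with a 95% interval from -0.71 to -0.11. By limma its unadjusted p was the 19th smallest of all genes, and its adjusted p was 1. The 2132 genes with a mean within 0.5 of that of Dusp1 had a median difference of -0.08, with -0.17 in number 1 and -0.0029 in number 2. Of these genes of like brightness, 21.4% had both plumbagin arrays below both controls. With any 1 array left out the difference stayed between -0.53 and -0.29.

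Dusp6, a cytoplasmic phosphatase with a strong preference for ERK, is among the genes most closely tied to ERK activity. Its log2 values were 9.51 and 9.71 in the controls and 9.32 and 9.56 in plumbagin 1 and 2. Each plumbagin array was lower than the control of its number, by nearly the same amount (-0.20 and -0.15), but plumbagin 2 lay above control 1, so the groups overlapped. The difference was -0.17 ± 0.13 (log2, SE, n = 2 per group) with a 95% interval from -0.53 to 0.18. The 2 controls differed from each other by -0.20, control 1 minus control 2, which is more than the mean difference. The latter was -0.05 without plumbagin 1 and -0.075 without control 2, and -0.30 without plumbagin 2 and -0.27 without control 1.

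Dusp4, a nuclear phosphatase of ERK and JNK, varied most between arrays among the members above background. Its log2 values were 9.06 and 9.65 in the controls and 8.54 and 9.60 in plumbagin 1 and 2. The arrays with number 1 were low and those with number 2 were high in both groups. The gap between the controls, -0.59, exceeded the mean difference of -0.28 ± 0.42 (log2, SE, n = 2 per group; 95% interval from -1.41 to 0.85). Plumbagin 1 was lower than control 1, with a difference of -0.52, and plumbagin 2 differed from control 2 by -0.04, and the mean difference turned to 0.25 without plumbagin 1 and to 0.015 without control 2. The interval includes differences of either sign that are larger than those of the other phosphatases.

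Dusp10, which acts on p38 and JNK rather than ERK, was below the background level. Its log2 values were 4.21 and 4.16 in the controls and 4.16 and 3.93 in plumbagin 1 and 2, a difference of -0.14 ± 0.11 (log2, SE, n = 2 per group). Its second probe set differed by -0.01. Both probe sets lay in the range where weak signals are compressed.

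**Figure D2:**
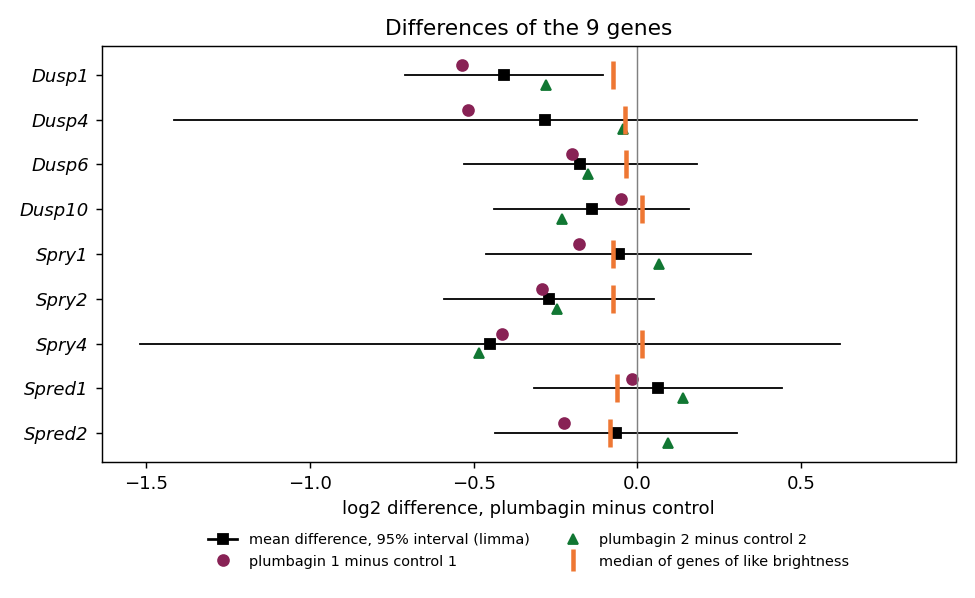
Log2 difference, plumbagin minus control, of each gene: the mean with its 95% limma interval (black), plumbagin 1 minus control 1 (purple circles), plumbagin 2 minus control 2 (green triangles) and the median of all genes within 0.5 of the same mean (orange ticks). The interval of Dusp1, from -0.71 to -0.11, is the one that does not reach 0, and those of Dusp4 and Spry4 are the widest.

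Spry2 encodes a membrane-associated inhibitor that growth factors induce and that acts between receptor tyrosine kinases and RAF. Its log2 values were 6.88 and 7.05 in the controls and 6.59 and 6.80 in plumbagin 1 and 2. The plumbagin values were below both controls and the decrease was alike in both numbers, -0.29 and -0.25. The mean difference was -0.27 ± 0.12 (log2, SE, n = 2 per group), 1.21-fold lower, with a 95% interval from -0.59 to 0.05. With 1 array left out it ranged from -0.37, without plumbagin 2, to -0.16, without plumbagin 1. By limma the adjusted p was 1.

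A second Spry2 probe set, also above background, gave 5.62 on both controls and 5.33 and 5.35 on plumbagin 1 and 2. Here too the groups did not overlap, and the difference was -0.29 ± 0.08 (log2, SE, n = 2 per group). Tested among 28898 named probe sets, it had a limma adjusted p of 1. Both Spry2 probe sets therefore gave nearly the same size of difference, -0.27 and -0.29, although they read the same RNA samples and are not independent replicates. Genes with a mean within 0.5 of Spry2 had a median of -0.17 in number 1 and -0.0026 in number 2, and 20.9% of them had both plumbagin arrays below both controls.

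Spry1, a close relative of Spry2, had log2 values of 6.78 and 6.89 in the controls and 6.60 and 6.96 in plumbagin 1 and 2. The plumbagin arrays lay on either side of both controls. The difference of -0.06 ± 0.15 (log2, SE, n = 2 per group; 95% interval from -0.46 to 0.35) lay near the median of genes of like brightness, -0.07. Its sign turned after cyclic loess (0.0075), without plumbagin 1 (0.12) and without control 2 (0.0018).

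Spry4, which also restrains RAS activation, was below background in the mean of each of its 4 probe sets. The brightest one gave 4.07 and 4.92 in the controls and 3.66 and 4.43 in plumbagin 1 and 2. Plumbagin was lower than the control within each number (-0.41 and -0.48), but the controls differed by -0.85 and the groups overlapped. The mean difference of -0.45 ± 0.40 (log2, SE, n = 2 per group) had a 95% interval from -1.52 to 0.62. It was -0.026 without control 2 and -0.06 without plumbagin 1, and -0.87 without control 1 and -0.84 without plumbagin 2. The other 3 Spry4 probe sets differed by -0.03, -0.0048 and 0.01, so the size seen on the brightest was not shared by them.

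The SPRED proteins bring neurofibromin, which turns RAS off, to the membrane. Spred1 had log2 values of 8.29 and 8.44 in the controls and 8.27 and 8.58 in plumbagin 1 and 2, with overlapping groups. The difference was 0.06 ± 0.14 (log2, SE, n = 2 per group; 95% interval from -0.32 to 0.44). Its mean was the only one among the 9 genes to be higher on the deposited values, while after cyclic loess those of Spry1 and Spred2 were higher too. The sign turned without plumbagin 2 (-0.094) and without control 1 (-0.015). All 5 of its probe sets had a higher mean after plumbagin, by 0.03 to 0.18. In 1 of the 5 both plumbagin arrays lay above both controls, as in 10.5% of all named probe sets.

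Spred2 had log2 values of 7.64 and 7.66 in the controls and 7.41 and 7.75 in plumbagin 1 and 2. The controls were nearly equal and the plumbagin arrays lay on opposite sides of them. The difference was -0.07 ± 0.14 (log2, SE, n = 2 per group; 95% interval from -0.44 to 0.30), near the median of genes of like brightness (-0.08), and its sign turned after cyclic loess (0.0025) and without plumbagin 1 (0.10). All 5 Spred2 probe sets had a lower mean. In 2 of the 5, both below background, both plumbagin arrays lay below both controls, as in 14.8% of all named probe sets.

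**Figure D3:**
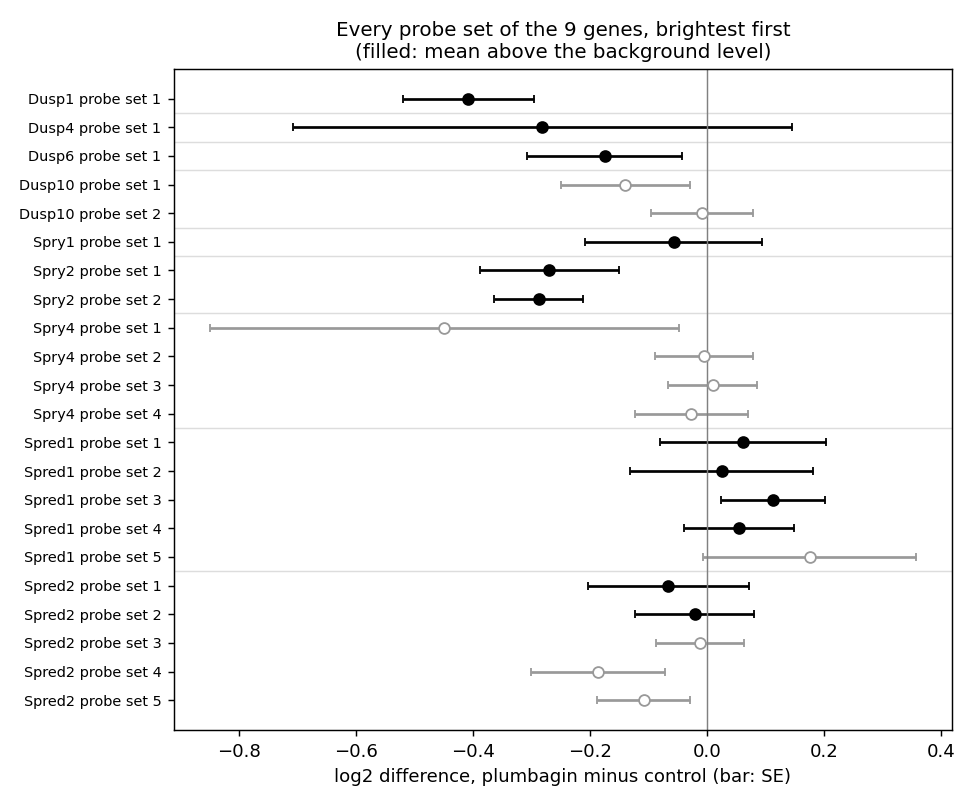
Log2 difference, plumbagin minus control, with its SE for all 22 probe sets of the 9 genes, numbered from the brightest; filled points have a mean above the background level and open points do not. The 2 Spry2 probe sets coincide at -0.27 and -0.29, and the 5 of Spred1 all lie above 0.

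Over all 22 probe sets of these genes, 16 had a lower mean and 12 had a mean above background. Both plumbagin arrays were below both controls in 5 of the 22, where this held for 14.8% of all named probe sets, and above them in 1, against 10.5%. Probe sets of 1 gene read the same RNA and are not independent.

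Within number 1 all 9 genes were lower in plumbagin 1 than in control 1 (55.5% of all genes), with a median of -0.22. Among them were the 7 members above background, where 5969 of 8637 genes were lower. Within number 2, 6 of the 9 were lower (51.5% of all genes), with a median of -0.15. Of the 7 members above background 4 were lower there, with a median of -0.04, and so were 4378 of all 8637 genes above background. The 6 genes lower in both numbers were Dusp1, Dusp4, Dusp6, Dusp10, Spry2 and Spry4, and 29.0% of all genes were lower in both. Dusp10 and Spry4 are below background. Above it, 4 of the 7 members and 3175 of 8637 genes were lower in both. Spry1, Spred1 and Spred2 were higher in plumbagin 2 than in control 2, by 0.07, 0.14 and 0.09. The difference between the phosphatases and the other genes was not tested.

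Plumbagin 1 was the lowest of the 4 arrays in 8 of the 9 genes and in all 7 above background. It was also the lowest in 41.7% of all genes above background, and their median difference in number 1 was -0.11. Without plumbagin 1, 5 of the 9 genes had a lower mean in place of 8, near the 58.0% of all genes in that fit. The member median fell in size to -0.05, with -0.02 over all genes.

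**Figure D4:**
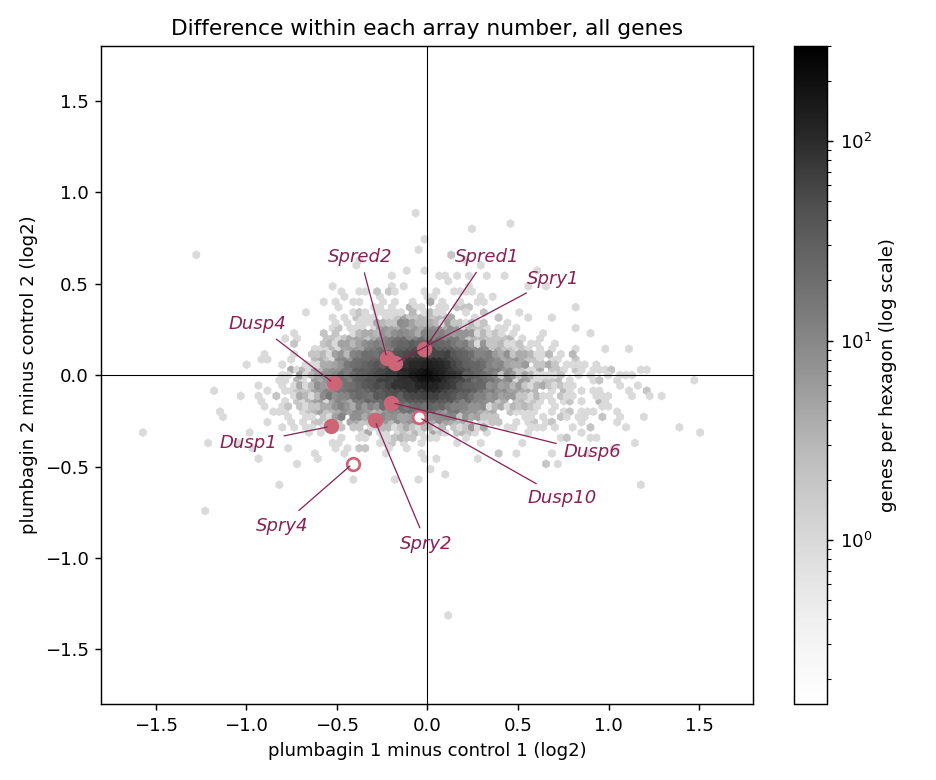
Difference plumbagin 1 minus control 1 (horizontal) against plumbagin 2 minus control 2 (vertical), both log2, for all 17097 genes as grey hexagons shaded by the number of genes on a log scale, with the 9 genes in red (open where the mean is below background). All 9 lie to the left of 0, and 6 also lie below 0 on the vertical axis.

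Among the 7 genes above background, patterns over the 4 arrays were set side by side as the root mean square distance between profiles centred on their own means. Spry1 and Spred2 were the closest pair (0.04), followed by Dusp6 and Spry2 (0.05), and Dusp1 and Dusp4 the farthest apart (0.37). For Dusp4, which ranged most (by 1.11), the 5 closest of 8389 named genes above background were Plekha5 (0.02), Slc23a2, a vitamin C transporter gene (0.02), Gcc1, a golgin gene (0.04), Osbpl2 (0.04) and Slc39a14, a metal ion transporter gene (0.04). Each was lowest on plumbagin 1, next on control 1 and high on both arrays with number 2. With 4 arrays many genes can share such a pattern, and the distances are a description.

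Other genes of the pathway were taken from lists made from general knowledge, and 0 of their members passed limma's adjusted test in either direction. Of 9 further MAP kinase phosphatases and relatives, 8 had a lower mean (55.2% of all genes, 65.1% of those above background). Their median was -0.07, and 7 were above background. In 4 of the 9 both plumbagin arrays lay below both controls (15.2% of all genes, 18.3% of those above background). Among these 4, Dusp3 did so narrowly, with 8.0092 on plumbagin 2 against 8.0100 on control 2. In 1 of the 9, Styxl1, which is below background, both plumbagin arrays lay above both controls (10.2% of all genes). Dusp7, an ERK phosphatase, had log2 values of 6.14 and 6.11 in the controls and 5.93 on both plumbagin arrays, a difference of -0.19 ± 0.08 (log2, SE, n = 2 per group). Dusp16, which acts on JNK and p38, differed by -0.17 ± 0.11, and Dusp14 by -0.21 ± 0.13.

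Of 14 other measured feedback inhibitors 8 had a lower mean (median -0.02), where 55.2% of all genes did, and 5 of the 14 were above background. Errfi1, an inhibitor of EGF receptor family kinases, had log2 values of 5.85 and 5.61 in the controls and 5.37 and 5.49 in plumbagin 1 and 2, a difference of -0.30 ± 0.12 (log2, SE, n = 2 per group). Both plumbagin arrays were below both controls, as in 2 of the 14 (15.2% of all genes, a like share), and in 1 of the 14, Lrig1, they were above both (10.2% of all genes). The RAS GTPase-activating gene Rasa2 differed by 0.24 ± 0.19, with overlapping groups.

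On the input side, 11 of 20 measured receptor tyrosine kinases had a lower mean, with a median of -0.0047. Of 16 growth factor ligands 4 had, with a median of 0.03. Beside these counts 55.2% of all genes had a lower mean. The share was 65.1% among genes above background and thus smaller among dimmer genes. Only 7 of the 20 and 4 of the 16 were above background, so 55.2% is not a matched share for these lists. The receptor gene Met differed by 0.10 ± 0.11 (log2, SE, n = 2 per group) and the ligand gene Tgfa by 0.16 ± 0.09. The mean of Tgfa, 5.13, was close to the background level of 5.05. The ligand gene Vegfa, with a mean of 7.87, differed by -0.10 ± 0.08. Of 14 measured genes of the ERK cascade 10 had a lower mean (median -0.05), and so had 10 of 16 genes of the JNK and p38 cascade (median -0.05). In these lists 13 and 14 genes were above background, where 65.1% of all genes had a lower mean. In the ERK cascade Araf, a RAF kinase, differed by -0.24 ± 0.15, and Ptpn11, the SHP2 phosphatase that relays receptor signals, by -0.20 ± 0.15. These differences lay mostly in number 1, with -0.45 and -0.40 there and -0.03 and -0.0027 in number 2. In the JNK and p38 cascade Mapk8ip1 differed by -0.34 ± 0.20, Mapkapk3 by -0.21 ± 0.11 and Map3k7 by -0.21 ± 0.16. Here the differences were -0.66, -0.34 and -0.39 in number 1 and -0.0093, -0.07 and -0.04 in number 2.

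Among 24 genes known to be transcribed in response to ERK or related kinases, 16 had a lower mean (55.2% of all genes), with a median of -0.06. Of the 24, 15 were above background, where 65.1% of all genes had a lower mean. In 6 of the 24 both plumbagin arrays lay below both controls (15.2% of all genes, 18.3% of those above background). Jun, an AP-1 subunit, had log2 values of 7.18 and 6.54 in the controls and 6.45 and 6.05 in plumbagin 1 and 2. The groups did not overlap, but the controls differed by 0.64, as much as the treatment difference of -0.61 ± 0.27 (log2, SE, n = 2 per group). Ier2 differed by -0.32 ± 0.15 and Atf3 by -0.69 ± 0.38, the latter with overlapping groups. Ier3, an early response gene chosen after its values were seen, differed by 0.64 ± 0.62 in the other direction, with log2 values of 8.32 and 6.87 in the controls and 8.77 and 7.70 in plumbagin 1 and 2. In 1 of the 24, Etv4, which is below background, both plumbagin arrays lay above both controls (10.2% of all genes).

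**Figure D5:**
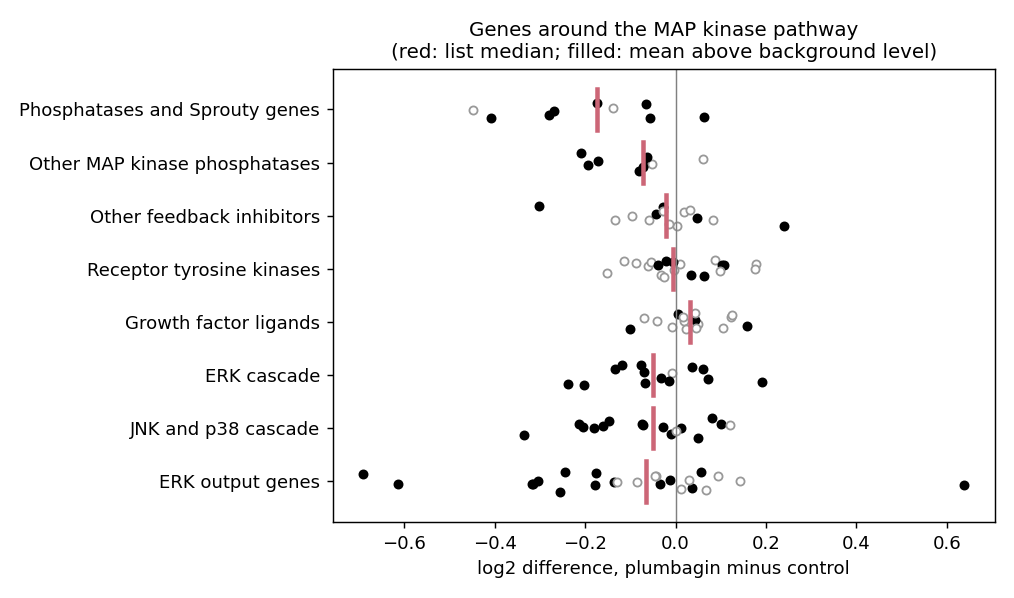
Log2 difference, plumbagin minus control, of every measured gene in the 9-gene set and in 7 lists of pathway genes (points, spread vertically for legibility; filled where the mean is above background), with list medians as red bars. The median of the 9 genes is -0.17 and those of the other lists lie between -0.07 and 0.03. The median of all genes above background is -0.05, and the lists differ in how many of their points are filled.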

How the data were processed

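Total RNA was labelled by 3-prime in vitro transcription with biotin and hybridised to Affymetrix mouse genome array strips, with 1 array for each sample, per the labels' protocols. The authors deposited log2 values for each probe set. RMA, Transcriptome Analysis Console and Affymetrix Expression Console are the tools in the submitters' processing notes; their versions are not given in the sources used here. This summary step is meant to make array distributions alike and compresses weak signals. In the deposited values a difference remained, with an upper quartile of 6.26 on plumbagin 1 and of 6.34 to 6.36 on the other arrays. Of 45141 probe sets, 28898 had 1 gene symbol in the platform annotation, which can be out of date, and 15588 were unnamed here. Symbols were updated through Entrez numbers for 28689 probe sets. The brightest probe set stood for each of 17097 genes.

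Differences were fitted over all genes with lmFit and eBayes (limma 3.58.1, R 4.3.3), two-sided, with no covariate, Benjamini-Hochberg adjustment and a threshold of 0.05. The code was tested on simulated data. The number of arrays, 2 per group, limits precision. The 10 members and the lists were chosen with earlier results of these data known. Named beside the members were up to 3 genes per list with the smallest p above the background level. Alternatives were averaging probe sets, 2 filters on dim genes, 3 normalizations, subtraction of the median of genes of like brightness, robust and trended variance models, a block for the replicate number, and fits without 1 array, in which the single array left in a group takes the spread of the other group.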

Additional observations from a re-analysis of the deposited data

How the results depend on the processing

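No member was called under any alternative run, and the lowest limma adjusted p of a member was 0.792. Dusp1, Dusp6, Dusp10, Spry2 and Spry4 had a lower mean in every fit that tested them; Dusp10 and Spry4 have no value under the filters on dim genes, which remove them. Dusp1 lay between -0.43 and -0.33 in the 10 alternatives that used all arrays, and Spry2 between -0.29 and -0.20. Spry1 and Spred2 turned to 0.0075 and 0.0025 after cyclic loess and to 0.017 and 0.018 when the median of genes of like brightness was subtracted, and 1 Spry4 probe set gave 0.0098. The Spry4 difference was -0.12 with its probe sets averaged, against -0.45.

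With 1 array left out, the count of members lower ranged from 5 (without plumbagin 1) to 9, and the median from -0.30 to -0.05. Of all genes 48.8% had a lower mean without control 1 (9 members) and 59.0% without control 2 (6 members). The share was 58.0% without plumbagin 1 (5 members) and 50.3% without plumbagin 2 (9 members). The count with plumbagin below all controls ranged from 3 to 8. The count above all controls ranged from 0 to 3 (without plumbagin 1). The share of all genes above all controls was not counted for these fits, so the 3 cannot be read against it. All genes had plumbagin below the controls in 28.2% (without control 1, 5 members), 39.9% (without control 2, 3 members), 36.2% (without plumbagin 1, 3 members) and 34.9% (without plumbagin 2, 8 members). Left-out values ranged from -0.87 to -0.026 for Spry4, from -0.30 to -0.05 for Dusp6, from -0.37 to -0.16 for Spry2, from -0.81 to 0.25 for Dusp4, from -0.24 to 0.12 for Spry1, from -0.094 to 0.22 for Spred1 and from -0.23 to 0.10 for Spred2. Dusp4 was 0.015 and Spry1 0.0018 without control 2, and Spred1 was -0.015 without control 1.

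With the replicate number as a block, 0 members and 0 of all genes passed (lowest member adjusted p = 0.919), while 434 genes had an unadjusted limma p under 0.05, against 169 without the block. With the block 3 members, Dusp1, Spry2 and Spry4, were lower at that level in place of 1, with 1.85% of all genes (limma adjusted p = 0.919 for each). Deviations from the group means correlated at 0.54 across genes between arrays of the same number, but 2 pairs cannot settle whether the numbers pair the samples. The causes of these shifts were not tested.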

Other observations

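Of 10 further DUSP genes that were in no list, 6 had a lower mean (55.2% of all genes), with a median of -0.03. Of the 10, 4 were above the background level. In 3 of the 10 both plumbagin arrays lay below both controls (15.2% of all genes): Dusp18 and Dusp12, which were above background, and Dusp15. In 2 of the 10, Dusp21 and Dusp23, both below background, they lay above both controls (10.2% of all genes). Dusp18 had log2 values of 6.72 and 6.41 in the controls and 5.99 and 6.33 in plumbagin 1 and 2, a difference of -0.40 ± 0.17 (log2, SE, n = 2 per group; limma adjusted p = 1). Most of it lay in number 1 (-0.73) and little in number 2 (-0.08). Dusp12 differed by -0.20 ± 0.11, with -0.28 in number 1 and -0.13 in number 2. These genes were looked at after the values of the members were seen.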
